A study of Mus musculus with 2669 samples.

Results

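The caudal ganglionic eminence (CGE) was compared between embryonic ages E12.5 and E14.5 (days after conception) in single cells of CD1 mouse embryos. The cells were those labelled CGE at either age that held at least 1000 detected genes and 50000 counts, which kept 854 of 856 CGE cells, out of 2650 cells kept in the whole series. At E12.5 there were 467 cells on 6 microfluidic capture chips, and at E14.5 there were 387 cells on 5 chips, all from the wild-type outbred strain with no treatment in the labels. The remaining cells of the series came from the dorsal and ventral medial ganglionic eminence (dMGE and vMGE) at the same ages. The labels name no animals, sexes, litters or dissection borders, so the chip served as the replicate. The p-values therefore describe how chips vary, and that variation may be partly technical. Cells within a chip are not replicates, and every comparison was made over chips.

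The ganglionic eminences are transient swellings of the embryonic ventral forebrain. Radial glia line their ventricle, divide, and pass through intermediate progenitors to give GABA-releasing neurons, which then migrate to the cortex, striatum and other targets. The CGE produces cortical interneurons marked by the nuclear receptors Nr2f1 and Nr2f2 and by Sp8, Prox1 and, later, Htr3a, and it lies beside the medial eminence, source of Lhx6-expressing interneurons, and the lateral eminence, source of striatal projection neurons. As neural progenitors age, they are known to lose early factors such as Hmga2 and the Igf2bp proteins and to gain factors of the NFI family that precede gliogenesis.

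Each chip held 58468299 to 92747163 counts over its kept cells. Over all kept cells, the chips differed in quality in a way that crossed age. On the 4 E12.5 and 3 E14.5 chips numbered 182 or below, the median number of detected genes per cell was between 3480 and 4306.5. On the 2 E12.5 chips (186 and 187) and 2 E14.5 chips (189-2 and 190-2) numbered 186 or above it was between 1630.5 and 2673. Chip 175 of E12.5 had a median mitochondrial share of 5.36% of counts, against at most 2.80% on the other chips. Values within each of the 2 chip series are given beside most pooled list medians and beside some single genes. A value given without them is not thereby even across the series. The chip number is only part of the cells' titles, and what it records was not stated.

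Clustering the CGE cells gave 6 clusters. Of these, clusters of 113 and 86 cells were progenitor-like, led by genes of S phase and of mitosis, and clusters of 111 and 208 cells were neuron-like by their level of neuronal markers. The score of the smaller, 0.208, lay just above the minimum of 0.2 for a name, and that of the larger was 0.353. None of the 10 leading genes of either neuron-like cluster was on the marker list. Clusters of 101 and 235 cells stayed unnamed, the first with a median mitochondrial share of 5.20% and the second with a median of 1803 detected genes. The larger unnamed cluster took 68 of 84 cells of chip 186, 61 of 76 of chip 189-2 and 73 of 84 of chip 190-2, so those chips contributed few cells to either class. Among named cells, the progenitor-like share was 50.1% ± 15.9 (SD, n = 6 chips) at E12.5 and 45.1% ± 30.9 (n = 5) at E14.5. The difference of -5.06 percentage points did not exceed the spread between chips (two-sided exact permutation test, p = 0.710). The direction depended on the chips: on E14.5 chips 160, 161 and 162 the shares were 23.4%, 26.5% and 20%, whereas on chips 189-2 and 190-2 they were 66.7% of 3 and 88.9% of 9 named cells. Over the 5 E12.5 and 3 E14.5 chips with at least 10 named cells, a set chosen after the data were seen, the share was 48.7% ± 17.4 at E12.5 and 23.3% ± 3.24 at E14.5 (exact permutation p = 0.0357, the smallest this design allows for n = 5 and 3). Clustering on the marker genes alone placed it at 72.4% ± 13.7 and 52.7% ± 13.1 on all 11 chips (exact permutation p = 0.0476, n = 6 and 5). The other ways of clustering did not reach p under 0.05 in the same test. The difference was -37.2 points at Leiden resolution 0.5 (exact permutation p = 0.0952), over the 5 E12.5 and 4 E14.5 chips with named cells. On all 11 chips it was -23.8 at resolution 2 (exact permutation p = 0.247). It was -4.20 with all cells of the series clustered together (exact permutation p = 0.571) and -5.66 with a stricter cell filter (exact permutation p = 0.801).

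**Figure D1:**
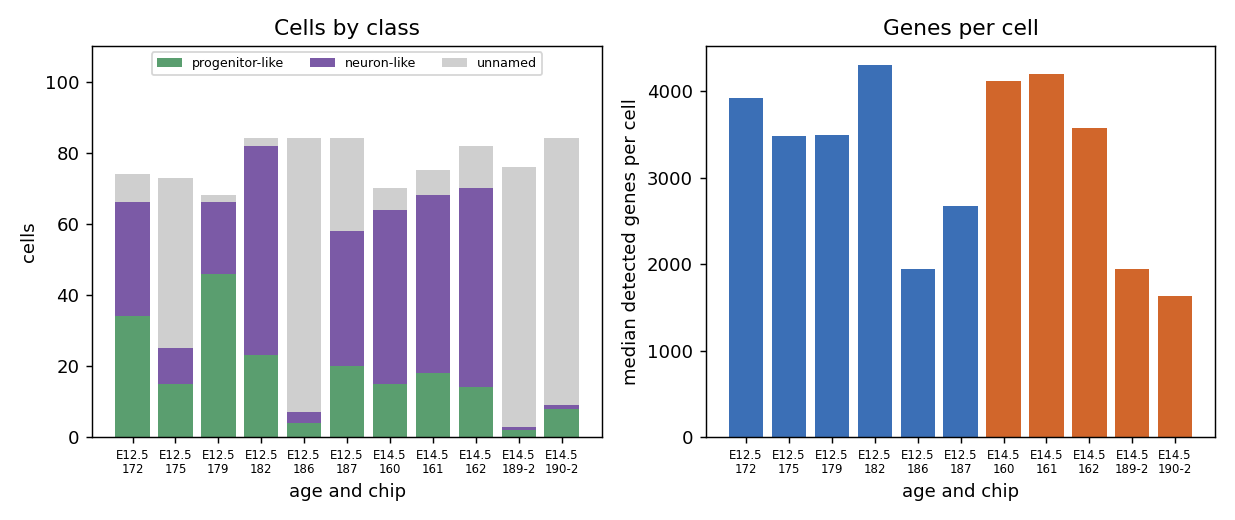
Left, number of kept CGE cells per chip by class (green progenitor-like, purple neuron-like, grey unnamed). Right, median number of detected genes per cell on each chip (blue E12.5, orange E14.5). Chips 186, 189-2 and 190-2 have the fewest genes per cell, and nearly all of their cells are unnamed.

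The first comparison asked which genes differ between the ages when all cells of a chip are summed. Levels are in CPM, a gene's counts relative to the scaled total of its chip, given as mean ± SD over 6 chips at E12.5 and 5 at E14.5 unless stated otherwise, and fold changes are on the log2 scale, E14.5 minus E12.5, with their standard error (SE). A gene passed where its edgeR p, adjusted over all genes tested, was under 0.05. The gene that passed was Mctp1 (ENSMUSG00000021596), which encodes a membrane protein with calcium-binding C2 domains, and it fell to near absence. On the E12.5 chips it ranged from 10.1 to 76.2 CPM with a median of 32.6. On E14.5 chips 160, 161, 162, 189-2 and 190-2 it stood at 0, 0.0441, 0.0162, 0 and 0 CPM. All E14.5 chips thus lay below all E12.5 chips, with 17300 reads on 6 of 6 chips at E12.5 and 4 reads on 2 of 5 chips at E14.5. The fitted log2 fold change was -11.42 ± 1.48 (SE; edgeR adjusted p = 0.0256), and its size rests on those 4 reads. With each cell thinned to 200000 counts, a Mctp1 read was found in 9.70% ± 4.35 of cells at E12.5 and 0.517% ± 0.709 at E14.5 (mean ± SD over chips), and in 17.8% and 0.775% of all cells without thinning. Mctp1 was the 1 gene called of 12760 tested (0.00784%), 558 genes had an unadjusted p under 0.05, and DESeq2 called 77. The call was lost with a term for chips numbered 186 and above (adjusted p = 0.0692) and on leaving out any chip but 161 or 179, with adjusted p from 0.0257 to 0.158 over the 11 omissions, while the log2 fold change stayed between -12.77 and -11.09.

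In such sums, fewer cells of a type and less RNA per cell cannot be told apart. The other genes with the smallest p-values towards lower levels at E14.5 did not pass the test, and their values follow. Hmga2 (ENSMUSG00000056758), a chromatin protein that sustains self-renewal of early neural stem cells, ranged from 1.45 to 59.4 CPM with a median of 23.2 at E12.5. On the 5 E14.5 chips it stood at 0.138, 0.0294, 0.0324, 0 and 0.0307 CPM, below every E12.5 chip (log2 fold change -8.97 ± 1.55, unadjusted p = 4.49e-05, adjusted p = 0.201). A Hmga2 read was found at equal depth in 12.4% ± 10.3 of cells at E12.5 and 0.830% ± 1.22 at E14.5. Ccnd1 (ENSMUSG00000070348), the G1 cyclin D1, ranged from 44.2 to 146 CPM with a median of 79.8 at E12.5 and stood at 20.1, 5.81, 10.7, 6.29 and 2.07 CPM on the E14.5 chips. No E14.5 value reached the lowest E12.5 value, and the log2 fold change was -3.19 ± 0.64 (adjusted p = 0.315). Nr2e1 (ENSMUSG00000019803), a nuclear receptor that maintains neural stem cells, had an E12.5 range from 53.2 to 248 CPM with a median of 96.1 and E14.5 values of 30.9, 25.1, 42.3, 15.4 and 13.4 CPM, again without overlap. Its log2 fold change was -2.38 ± 0.50, and -2.31 and -2.39 within the lower and higher chip numbers.

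The Wnt receptor gene Fzd1, averaged 78.3 ± 32.4 CPM at E12.5 and 14.7 ± 10.2 at E14.5, with every E14.5 chip below every E12.5 chip. Its difference was uneven between the chip series, at -3.61 on chips up to 182 and -0.78 on those from 186. Anp32b, a nuclear histone-binding protein, averaged 178 ± 43.3 CPM at E12.5 and 80.6 ± 8.64 at E14.5, a smaller but even difference of -1.14 ± 0.28 that also showed no overlap. Lmo1, a LIM-only transcriptional cofactor, averaged 307 ± 199 CPM at E12.5 and 66.9 ± 44.7 at E14.5, and for it the groups overlapped. They also overlapped for Lix1, which averaged 100.0 ± 47.4 CPM at E12.5 and 18.0 ± 11.6 at E14.5. Over all genes, 57 (0.447%) had every E14.5 chip below every E12.5 chip and 81 (0.635%) the reverse.

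Towards higher levels at E14.5, none of the genes passed the test, and 328 genes (2.57%) had an unadjusted p under 0.05. Ndrg2 (ENSMUSG00000004558), which marks astrocytes in the mature brain, ranged from 4.94 to 46.4 CPM with a median of 25.3 at E12.5 and stood at 145, 170.3, 151, 177 and 279 CPM on the 5 E14.5 chips. The groups did not overlap (log2 fold change 2.80 ± 0.49, adjusted p = 0.201), and the difference was 2.24 and 3.95 within the lower and higher chip numbers. Nxph1 (ENSMUSG00000046178), a secreted ligand of neurexins found in interneurons, had an E12.5 range from 35.6 to 99.3 CPM with a median of 54.9 and E14.5 values of 183, 182, 204, 364 and 169 CPM. Ackr3 (ENSMUSG00000044337), the scavenging receptor for the chemokine that guides migrating interneurons, had an E12.5 range from 51.1 to 97.5 CPM with a median of 77.7 and E14.5 values of 168, 209, 244, 277 and 112 CPM. For both genes every E14.5 chip was above every E12.5 chip.

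Sertad4 averaged 24.2 ± 13.9 CPM at E12.5 and 128 ± 34.7 at E14.5. The zinc finger gene Zfp704 averaged 45.2 ± 21.7 CPM at E12.5 and 176 ± 96.8 at E14.5. Mpped2, which encodes a metallophosphodiesterase, averaged 242 ± 70.0 CPM at E12.5 and 582 ± 131 at E14.5. Rb1cc1, a component of the complex that starts autophagy, averaged 148 ± 35.2 CPM at E12.5 and 359 ± 89.3 at E14.5. For these 4 genes the ages did not overlap, and the log2 fold changes were 2.4 ± 0.45, 1.96 ± 0.43, 1.26 ± 0.28 and 1.28 ± 0.27 (adjusted p from 0.268 to 0.464). Fgf13, which binds voltage-gated sodium channels inside the cell, stood at 98.9, 362, 436, 797 and 823 CPM on the E14.5 chips against a range from 21.4 to 145 CPM with a median of 70.8 at E12.5. Chip 160 lay within the E12.5 range and the other 4 chips above it. Each of the 16 genes of the lower and higher sets kept its direction within both chip series.

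**Figure D2:**
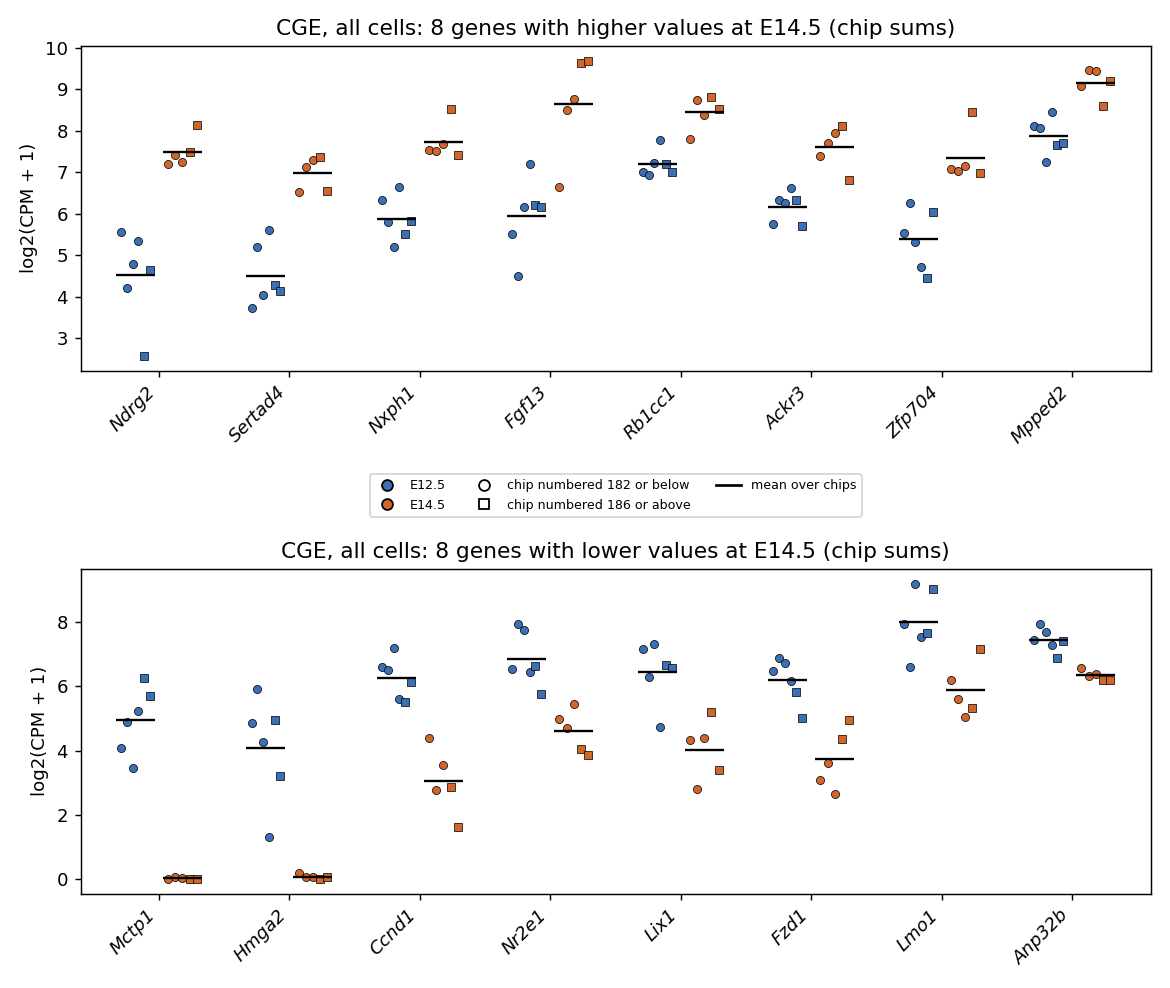
Level of the 16 genes with the smallest p-values in sums over all CGE cells, as log2(CPM + 1). Each point is a chip (blue E12.5, orange E14.5, squares for chips numbered 186 or above) and bars are means over chips of the plotted values. Mctp1 and Hmga2 sit at or near 0 on all 5 E14.5 chips, and of the 16 genes Fgf13, Lix1 and Lmo1 overlap between the ages.

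Members of gene groups were read as counts of direction beside all genes tested, of which 6302 had a positive and 6458 a negative fold change, with a median of -0.01. None of the listed genes passed the test across all genes, so the counts describe fitted values. Early temporal genes, expressed by young neural progenitors, had negative values for 10 of 12 tested members with a median of -1.69, and 4 of them had an unadjusted p under 0.05 towards lower levels, where 1.8% of all genes did. The median was -1.52 on chips up to 182 and -0.66 on chips from 186, -0.98 with each cell thinned to 50000 counts and -0.75 with limma on log2(mean CPM + 10). Besides Hmga2 and Ccnd1, these were the RNA-binding protein Igf2bp1, at 44.8 ± 13.1 CPM at E12.5 and 13.8 ± 6.81 at E14.5, and the zinc finger factor Sall4, at 2.46 and 0.0124 CPM. Igf2bp3 stood at 90.4 ± 27.4 CPM at E12.5 and 58.9 ± 29.4 at E14.5, with fold changes of -1.10 and -0.12 in the 2 chip series. Plagl1, an imprinted zinc finger factor, was read at 35.2, 105, 80.7, 0.0556 and 230.2 CPM on the E14.5 chips and had an E12.5 range from 14.7 to 2019 CPM with a median of 123, chip 175 being the highest. The exceptions were Lin28b, at 4.27 and 11.3 CPM, and Nr6a1, at 2.84 and 9.24 CPM.

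Radial glia genes were negative for 17 of 19 members (median -0.95). Towards lower levels 8 had an unadjusted p under 0.05, where 1.8% of all genes did. Fabp7, the brain fatty acid binding protein of radial glia, ranged from 349 to 1279 CPM with a median of 845 at E12.5 and stood at 175, 191, 185, 501 and 273 CPM on the E14.5 chips, where chip 189-2 exceeded the lowest E12.5 chip (log2 fold change -1.57 ± 0.42, adjusted p = 0.596). It was -2.20 on chips up to 182 and -0.85 on chips from 186. Ptprz1, a receptor phosphatase, averaged 376 ± 115 CPM at E12.5 and 195 ± 63.4 at E14.5 without overlap, and the filament protein Vim 258 ± 96.2 CPM at E12.5 and 147 ± 80.3 at E14.5 with overlap. Sox2, which maintains the progenitor state, averaged 206 ± 129 CPM at E12.5 and 210.4 ± 116 at E14.5, a log2 fold change of 0.03 ± 0.45 that was -0.96 on chips up to 182 and 1.49 on chips from 186. The median of the list was -1.21 and -0.85 in those 2 chip series.

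Notch pathway genes, through which neighbouring cells hold each other in the progenitor state, were negative for 14 of 17 (median -0.86). The median was -1.23 on chips up to 182 and -0.38 on chips from 186. The ligand gene Dll1 stood at 88.0 and 33.3 CPM at E12.5 and E14.5, the target genes Hes1 and Hes5 at 33.5 and 8.24 CPM and at 21.5 and 5.54 CPM, and the feedback inhibitor Nrarp at 44.0 and 9.48 CPM. These 4 were the members with an unadjusted p under 0.05, all towards lower levels, where 1.8% of all genes had such a p. Hes1 and Hes5 belong to the radial glia list as well, and Dll1 to that of neurogenic intermediate progenitors. That last list was negative for 10 of 13 members (median -0.66, and -0.86 and -0.25 in the 2 chip series), among them Gadd45g, a growth arrest gene of committed progenitors, at 574 ± 254 CPM at E12.5 and 187 ± 103 at E14.5. Its member Ccnd2, the cyclin D2 of dividing neural progenitors, ran the other way at 536 ± 188 CPM at E12.5 and 1009 ± 159 at E14.5, with every E14.5 chip above every E12.5 chip (log2 fold change 0.91 ± 0.29, adjusted p = 0.873). The 2 D-type cyclins thus had values of opposite direction.

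Mitotic genes showed no member at an unadjusted p under 0.05. Of 25 G2 and M phase genes, 17 were negative and 8 positive, with a median of -0.21. Top2a, the topoisomerase of dividing cells, averaged 424 ± 129.7 CPM at E12.5 and 509 ± 268 at E14.5. The kinetochore gene Cenpf averaged 425 ± 153 CPM at E12.5 and 416 ± 347 at E14.5. All 4 of the most abundant members overlapped between the ages, the others being the mitotic cyclin Ccnb1, at means of 517 and 359 CPM at E12.5 and E14.5, and the ubiquitin-conjugating enzyme Ube2c, at 349 and 208 CPM. Ccnb1 and Cenpf had values of opposite sign in the 2 chip series. The list's median turned with the chips too, at -0.75 on chips up to 182 and 0.31 on those from 186. Of 22 S phase genes 17 were negative, with a median of -0.14, and -0.55 and 0.29 in the 2 series.

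The genes that mark CGE-born interneurons were lower for 9 of 10 tested members in fitted value, with a median of -0.85 (-0.12 on chips up to 182, where 5 of 11 were positive, and -2.36 on chips from 186). Nr2f2 (ENSMUSG00000030551) ranged from 134 to 536 CPM with a median of 261 at E12.5 and stood at 28.3, 47.9, 28.9, 180.3 and 116 CPM on E14.5 chips 160, 161, 162, 189-2 and 190-2. Chips 160, 161, 162 and 190-2 lay below the E12.5 range and 189-2 inside it. The log2 fold change was -1.85 ± 0.55 (unadjusted p = 0.00488, adjusted p = 0.766), -3.15 on chips up to 182 and -0.77 on those from 186. Nr2f1 (ENSMUSG00000069171) ranged from 382 to 1222 CPM with a median of 600.1 at E12.5 and stood at 129.5, 97.6, 115, 697 and 169 CPM at E14.5, so 4 of 5 chips lay below every E12.5 chip and chip 189-2 did not. Its log2 fold change of -1.50 ± 0.53 split in the same way, into -2.68 and -0.48. At equal depth, Nr2f2 was read in 80.9% ± 16.2 of cells at E12.5 and 46.1% ± 11.5 at E14.5, and Nr2f1 in 95.3% ± 5.59 of cells at E12.5 and 73.7% ± 12.4 at E14.5. Without thinning these shares of all cells were 87.6% and 57.9% for Nr2f2 and 97.6% and 86.0% for Nr2f1.

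The later markers of the lineage were sparser. Sp8, a zinc finger factor of CGE interneurons, averaged 65.2 ± 125 CPM at E12.5 and 36.9 ± 23.0 at E14.5, its E12.5 mean resting on chip 175 at 321 CPM. Its log2 fold change was -1.22 on chips up to 182 and 1.01 on chips from 186. Prox1, a homeodomain factor of the same neurons, averaged 64.8 ± 34.7 CPM at E12.5 and 27.4 ± 16.0 at E14.5 and was at 0 on chip 190-2. Htr3a, the serotonin-gated channel that marks mature CGE interneurons, was the positive exception, with 46 reads on 4 of 6 chips at E12.5 and 2408 reads on 5 of 5 chips at E14.5. It reached 15, 2.25, 2.58, 2.41 and 7.86 CPM on the E14.5 chips against at most 0.343 at E12.5 (log2 fold change 5.89 ± 1.78, adjusted p = 0.766). A read was found at equal depth in 0.698% ± 1.22 of cells at E12.5 and 3.56% ± 3.73 at E14.5. The mature peptide Vip was at 0 on every chip.

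Genes of the neighbouring eminences had values in the other direction. Of 13 MGE lineage genes 12 were positive (median 1.07). Towards higher levels 5 had an unadjusted p under 0.05, where 2.57% of all genes did. The median was 1.0 on chips up to 182 and 1.12 on chips from 186, but 0.43 with each cell thinned to 50000 counts, 0.53 with E14.5 chips 160 to 162 alone and 0.61 with limma on log2(mean CPM + 10). Lhx6, the LIM homeodomain factor of MGE-born interneurons, ranged from 5.02 to 236 CPM with a median of 63.3 at E12.5 and stood at 337, 222, 315, 402 and 289 CPM on the E14.5 chips. E12.5 chip 182 reached the E14.5 range, and the log2 fold change was 2.00 ± 0.63 (adjusted p = 0.838). At equal depth an Lhx6 read was found in 29.5% ± 14.9 of cells at E12.5 and 44.8% ± 12.2 at E14.5. Maf, a transcription factor of migrating MGE interneurons, averaged 28.2 ± 18.6 CPM at E12.5 and 153 ± 147 at E14.5. The neuregulin receptor Erbb4 averaged 47.2 ± 39.4 CPM at E12.5 and 164 ± 84.0 at E14.5. Both overlapped between the ages, as did the neuropeptide Npy at 81.9 ± 36.5 CPM at E12.5 and 245 ± 116 at E14.5. Nkx2-1, which specifies MGE progenitors, averaged 26.0 ± 10.8 CPM at E12.5 and 34.3 ± 30.1 at E14.5 (log2 fold change 0.40 ± 0.63).

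Striatal and lateral eminence genes were positive for 14 of 16 (median 0.97, and 0.79 and 1.16 in the 2 chip series). It was 0.63 with limma on log2(mean CPM + 10). The opioid precursor Penk was at 2.86, 45.9, 4.37, 38.3 and 23.4 CPM on the E14.5 chips and at most 1.67 CPM at E12.5, with 7939 reads against 242. Foxp1, a forkhead factor of striatal projection neurons, averaged 58.6 ± 37.0 CPM at E12.5 and 172 ± 64.6 at E14.5. The homeodomain factor Six3 averaged 46.3 ± 12.4 CPM at E12.5 and 93.2 ± 29.4 at E14.5. Among the 4 most abundant members, the largest fitted value was that of Foxp2, a forkhead factor, at 1.0 ± 0.50 with means of 138 and 276 CPM. Next came the zinc finger factor Sp9 at 0.87 ± 0.38 (169 and 308 CPM). The zinc finger factor Bcl11b had 0.71 ± 0.41 (197 and 322 CPM) and the homeodomain factor Meis2 0.42 ± 0.32 (399 and 533 CPM). The part that cells of the neighbouring eminences have in the CGE values was not tested.

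**Figure D3:**
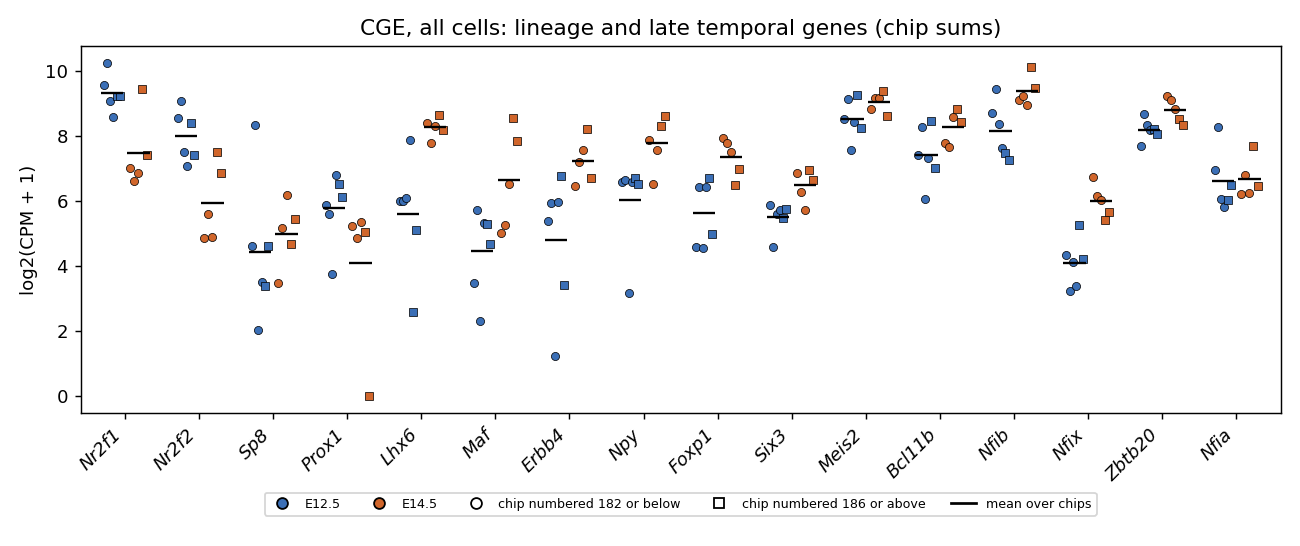
Level of lineage and late temporal genes in sums over all CGE cells, as log2(CPM + 1), with points, colours and bars as in the plot of the 16 genes. For Nr2f1 and Nr2f2, 4 of 5 E14.5 chips lie below every E12.5 chip, and Lhx6, Foxp1 and Nfix have higher means at E14.5.

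Late and gliogenic genes had values in both directions, with 9 positive and 8 negative members and a median of 0.21. The median was -0.70 over the 19 members tested on chips up to 182 and -0.62 over the 14 tested on chips from 186. With the chip series as a term it was -0.09 over the 17 members of the pooled fit. The NFI factors of the list differed among themselves. Nfix ranged from 8.47 to 37.4 CPM with a median of 17.1 at E12.5 and stood at 106, 70.9, 64.7, 42.2 and 49.9 CPM on the E14.5 chips, all above E12.5 (log2 fold change 1.88 ± 0.53, adjusted p = 0.649). Nfib averaged 327 ± 205 CPM at E12.5 and 694 ± 247 at E14.5 with overlap, at 0.41 and 2.47 in the 2 chip series, while Nfia averaged 118 ± 96.3 CPM at E12.5 and 109.8 ± 55.0 at E14.5, with values of -0.70 and 0.90. Zbtb20, a zinc finger factor of late progenitors, averaged 298 ± 67.3 CPM at E12.5 and 458 ± 116 at E14.5. The negative side held Fabp7, already described, with the metallothionein Mt1 at 68.5 and 21.1 CPM and the growth factor receptor Fgfr3 at 25.9 and 7.12 CPM at E12.5 and E14.5.

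Pan-neuronal genes were positive for 19 of 27 (median 0.47, and 0.24 and 0.51 in the 2 chip series), among them Stmn2, a regulator of axonal microtubules, at 262 ± 46.3 CPM at E12.5 and 516 ± 81.0 at E14.5. The microtubule-associated tau gene Mapt averaged 105 ± 21.7 CPM at E12.5 and 195 ± 41.9 at E14.5, and neither gene overlapped. Of 32 synapse and excitability genes 20 were positive (median 0.47). The median was 0.77 on chips up to 182, where 23 of 32 were positive, and 0.10 on chips from 186, where 17 of 31 were. With E14.5 chips 189-2 and 190-2 alone, 16 of 32 were positive and the median was -0.01. The glutamate receptor subunit Gria1 averaged 16.6 ± 14.7 CPM at E12.5 and 90.2 ± 51.2 at E14.5, with overlap. Among the most abundant members, the adhesion gene Nrxn3 averaged 311 ± 182 CPM at E12.5 and 580.4 ± 91.6 at E14.5. The glutamate receptor subunit Gria2 had means of 141 and 200.1 CPM at E12.5 and E14.5, and the vesicle fusion gene Snap25 had 149 and 144 CPM. Of 10 GABAergic genes 8 were positive, with a median of 0.28 (0.09 on chips up to 182 and 0.92 on chips from 186), and with Dlx5 at 329 ± 41.1 CPM at E12.5 and 532 ± 219 at E14.5.

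All 36 ribosomal protein genes had negative values, from -0.82 to -0.02 with a median of -0.37, and 1 had an unadjusted p under 0.05; with limma or with cells thinned to 50000 counts 35 of 36 were negative. Their summed level was 4898 to 10662 CPM on E12.5 chips and 4099.7 to 7699.9 on E14.5 chips, so the chips overlapped widely. On chips from 186 alone 27 of 36 were negative, and with E14.5 chips 189-2 and 190-2 alone 20 of 36. Imprinted genes were negative for 13 of 18 (median -0.66, and -0.86 and -0.25 in the 2 chip series). Retinoic acid genes were negative for 8 of 10 (median -0.84, -0.64 and -2.71 in the 2 series, and -0.16 with limma on log2(mean CPM + 10)), including the binding protein Crabp2 at 58.5 and 3.80 CPM with every E14.5 chip below E12.5. Chromatin genes, which include subunits of the BAF remodelling complex, had a median of -0.10. It was -0.15 on chips up to 182 and 0.11 on chips from 186. Neural splicing genes had a median of 0.19, and 0.12 and 0.39 in the 2 series. No member of either list had an unadjusted p under 0.05. Migration and guidance genes went both ways, with 9 positive and 12 negative. Their median was -0.26, 0.23 and -0.54 in the 2 chip series and 0.11 with thinned cells. The semaphorin receptor genes Plxna4, at 11.4 and 88.1 CPM, and Nrp2, at 21.4 and 3.46 CPM, lay on opposite sides without overlap between the ages.

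**Figure D4:**
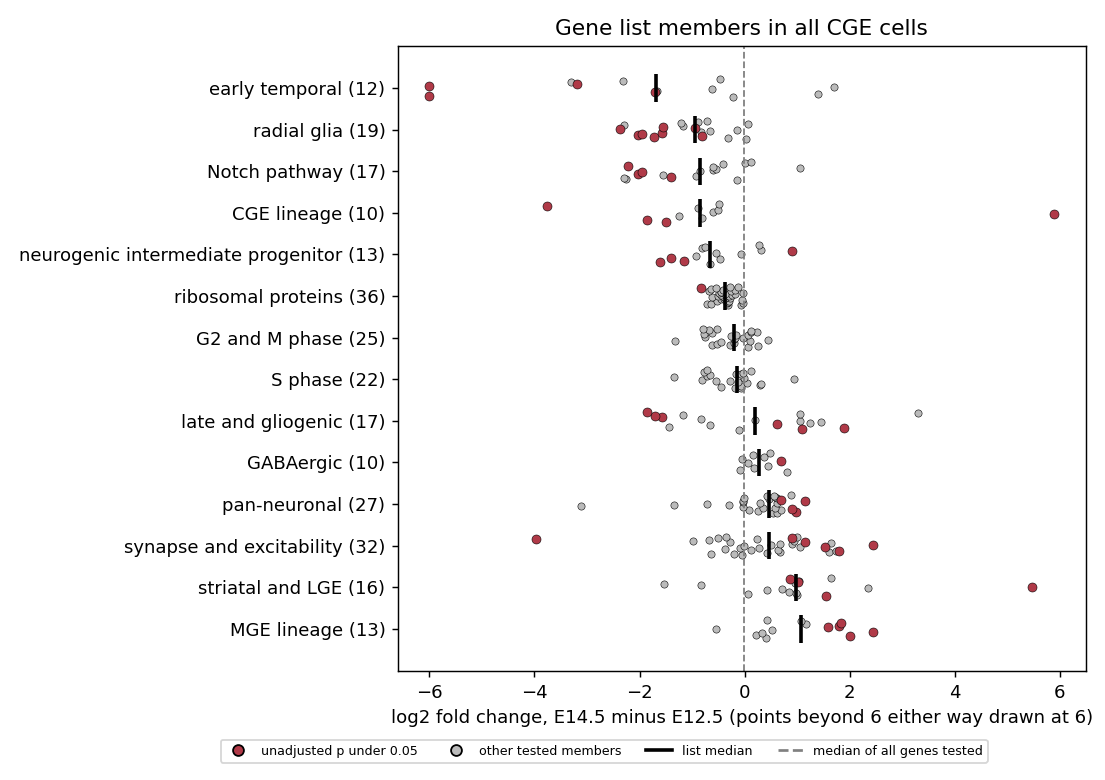
Log2 fold change (E14.5 minus E12.5) of each tested member of 14 gene lists in sums over all CGE cells. Points are genes (values beyond 6 either way are drawn at 6), red where the unadjusted p was under 0.05, black bars are list medians and the dashed line is the median of all genes tested. Medians run from -1.69 for early temporal genes to 1.07 for MGE lineage genes, and several move with the chips or the scaling as given in the text.

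Markers of other cell types were also summed, and the highest sums were those of haemoglobins. The 10 endothelial markers summed to 2.50 to 35.5 CPM on E12.5 chips and 0.0150 to 4.96 on E14.5 chips. The 10 microglial markers summed to 0 to 198 CPM on E12.5 chips and 0 to 5.11 on E14.5 chips. The 13 markers of pallial excitatory neurons summed to 0.269 to 257 CPM on E12.5 chips and 0.626 to 70.8 on E14.5 chips. The 10 erythroid markers summed to 6.23 to 40.9 CPM on E12.5 chips and 2.37 to 2117 on E14.5 chips, with Hemgn at 0 throughout. Among them Hbb-bs, an adult beta globin, stood at 0.0636, 1091, 1194, 147 and 0.307 CPM on the E14.5 chips and at most 17.8 CPM at E12.5. Hbb-y, the embryonic globin, was read on 6 of 6 E12.5 chips (3122 reads) and in 0 of 369123204 reads at E14.5. Both are genes of red blood cells, and the part such cells play in other values was not tested. Genes induced by dissociation had a median of 0.21, with 9 of 12 positive. The median was 0.55 on chips up to 182 and 0.38 on chips from 186.

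The second comparison took progenitor-like cells alone, which left 5 E12.5 chips (172, 175, 179, 182 and 187) and 3 E14.5 chips (160, 161 and 162) with at least 10 such cells. The classes were built from genes of the same cells. In progenitor-like cells, genes per cell went largely with age. The medians were 4224.5, 3896, 3817.5, 4832 and 2869 on those E12.5 chips and 4815, 4879 and 4798.5 on the E14.5 chips. Of 11501 genes tested, edgeR called 0 (0.0%), 609 had an unadjusted p under 0.05, of which 432 were lower at E14.5, DESeq2 called 88 and limma 0. With these fewer chips, 311 of the 11501 genes had every E14.5 chip above every E12.5 chip and 301 had every E14.5 chip below.

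The nuclear receptors of the CGE were among the genes of smallest p on the lower side. Nr2f1 was read at 831, 1183, 738, 348 and 536 CPM on the 5 E12.5 chips and at 134, 164 and 202 on the 3 E14.5 chips, and Nr2f2 at 311, 307, 204, 114 and 204 and at 13.3, 48.1 and 51.8 CPM. Neither gene overlapped between the ages (log2 fold changes -2.13 ± 0.44 and -2.60 ± 0.58, edgeR adjusted p = 0.920 for both). In sums over all cells, their log2 fold changes with E14.5 chips 160 to 162 alone were -2.57 and -3.04. With chips 189-2 and 190-2 alone, which are absent here, they were -0.64 and -0.95. Gadd45g averaged 1064 ± 492 CPM at E12.5 and 257 ± 75.9 at E14.5 (SD, n = 5 and 3 chips). Lmo1 averaged 507 ± 189 CPM at E12.5 and 129.9 ± 53.0 at E14.5. For neither did the ages overlap, nor for the nucleotide kinase Nme1 at 454 ± 99.4 CPM at E12.5 and 187 ± 21.5 at E14.5. Serbp1, an mRNA-binding protein, averaged 569 ± 144 CPM at E12.5 and 254 ± 8.05 at E14.5. The small GTPase Arl4a averaged 183 ± 64.3 CPM at E12.5 and 43.6 ± 26.7 at E14.5. Napepld, an enzyme of lipid mediator synthesis, averaged 55.7 ± 51.9 CPM at E12.5 and 0.727 ± 1.09 at E14.5. These 3 likewise did not overlap. All 6 tested CGE lineage genes (median -1.80) and all 11 tested early temporal genes (median -2.09) had negative values, beside a median of -0.12 over all genes. Of each list, 3 members had an unadjusted p under 0.05 towards lower levels, where 3.76% of all genes did. Igf2bp3 stood at 109 ± 57.0 CPM at E12.5 and 27.0 ± 11.3 at E14.5 and Ccnd1 at 148 ± 66.7 CPM at E12.5 and 29.7 ± 29.8 at E14.5, both without overlap, and Igf2bp1 at 63.7 ± 42.0 CPM at E12.5 and 30 ± 16.7 at E14.5.

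The higher side in progenitor-like cells included genes that were nearly unread at E12.5. Aldh1l1, a folate enzyme used as an astrocyte marker, was read at 0.299, 0, 0.0192, 0 and 0 CPM on the E12.5 chips and 6.87, 20.1 and 119.8 on the E14.5 chips, 13 reads against 1342. Slc15a2, a peptide transporter, had 2 reads on 1 of 5 E12.5 chips and 2166 reads on 3 of 3 E14.5 chips, at 8.94, 81.2 and 81.6 CPM. Ogn, a matrix proteoglycan, had 0 reads of 144331581 at E12.5 and 39.5, 20.9 and 22.3 CPM at E14.5. Against a floor of 3 reads over the E12.5 group, the pooled Ogn level was at least 1432-fold higher, though the gene was not called. The E14.5 sums held 15, 18 and 14 cells on chips 160, 161 and 162. How many of those cells gave the reads of Aldh1l1, Slc15a2 and Ogn is not given here. Nfix was read at 18.0, 3.42, 25.2, 24.4 and 3.82 CPM and at 141, 122 and 183 CPM at the later age, without overlap (log2 fold change 3.31 ± 0.75, adjusted p = 0.920). Nfib averaged 327 ± 148 CPM at E12.5 and 619 ± 39.1 at E14.5. The lipid carrier Apoe averaged 10.8 ± 10.1 CPM at E12.5 and 171 ± 173 at E14.5, and neither gene overlapped. Late and gliogenic genes were positive for 11 of 17 here (median 0.61), 4 of them at an unadjusted p under 0.05, where 1.54% of all genes were.

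The semaphorin receptor gene Plxna4 averaged 0.468 ± 0.531 CPM at E12.5 and 34.6 ± 10.8 at E14.5 in progenitor-like cells. The fatty acid desaturase Fads1 averaged 79.2 ± 18.2 CPM at E12.5 and 230.4 ± 35.3 at E14.5. Neither overlapped, nor did the BRCA2-binding protein gene Emsy, with means of 38.6 and 180.3 CPM, and Rmnd5a, with 14.1 and 89.6 CPM. Radial glia genes were negative for 15 of 19, with a median of -0.40 and no member at an unadjusted p under 0.05. Fabp7 averaged 1098 ± 537 CPM at E12.5 and 784 ± 402 at E14.5. The means were 473 and 382 CPM for Ptprz1, 198 and 150.2 CPM for Sox2 and 354 and 301 CPM for Vim, and all 4 overlapped between the ages. Top2a averaged 871 ± 307 CPM at E12.5 and 1468 ± 909 at E14.5 and the median of the G2 and M phase list was -0.28. Ccnd2 stood at 917 ± 291 CPM at E12.5 and 1749.8 ± 119.9 at E14.5, again without overlap.

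The third comparison took neuron-like cells on the same chips. Their median genes per cell were 3768.5, 3509, 3380.5, 4071 and 2673 on the E12.5 chips and 4091, 4108 and 3585.5 on the E14.5 chips. The neuron-like cells of the 2 ages came mostly from different clusters: cluster 1, whose score lay just above the minimum, held 100 cells of E12.5 and 11 of E14.5, and cluster 5 held 62 cells of E12.5, 53 of them from chip 182, and 146 of E14.5. Of 12316 genes, edgeR called 0 (0.0%), 548 had an unadjusted p under 0.05, DESeq2 called 90 and limma on log2(mean CPM + 10) called 3. Every E14.5 chip lay above every E12.5 chip for 565 of the 12316 genes, and below for 255.

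Among lower values, Mctp1 was read at 33.2, 13.4, 18.4, 44.4 and 59.3 CPM on the E12.5 chips and 0, 0 and 0.0226 on the E14.5 chips, 7053 reads against 1. Nr2f1 stood at 831, 989, 317, 417 and 673 CPM at E12.5 and 121, 80.5 and 86.7 at E14.5, and Nr2f2 at 549, 609.9, 185, 154 and 199.6 and 39.2, 40.8 and 25.1 CPM. Crabp2, which carries retinoic acid, was at 52.7, 29.0, 30.9, 41.1 and 51.8 and 0.657, 0.319 and 0.925 CPM. None of these 4 overlapped, with log2 fold changes of -11.70 ± 1.85, -2.75 ± 0.46, -3.28 ± 0.61 and -6.01 ± 1.08 and an edgeR adjusted p of 0.471 for each. The E14.5 chips here were again those on which Nr2f1 and Nr2f2 were lowest in sums over all cells. Fabp7 averaged 473 ± 353 CPM at E12.5 and 63.7 ± 22.8 at E14.5. Fzd1 averaged 81.4 ± 52.0 CPM at E12.5 and 6.09 ± 2.15 at E14.5. Neither overlapped, nor did the brain creatine kinase Ckb at 974 ± 232 CPM at E12.5 and 397 ± 50.5 at E14.5 or the palmitoyltransferase Zdhhc2 at 179.7 ± 84.2 CPM at E12.5 and 40.4 ± 4.75 at E14.5. Radial glia genes were negative for 16 of 19 in these cells (median -1.36, against -0.06 for all genes), with 7 at an unadjusted p under 0.05, where 2.44% of all genes were. Early temporal genes were negative for 8 of 11 (median -1.94), including Igf2bp1 at 40.4 ± 18.5 CPM at E12.5 and 10.6 ± 5.21 at E14.5 and Igf2bp3 at 117 ± 38.5 CPM at E12.5 and 52.5 ± 12.4 at E14.5. The 36 ribosomal protein genes were again all negative, with a median of -0.52.

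Among higher values in neuron-like cells, Ptprm, an adhesion receptor phosphatase, had 3 reads on 2 of 5 E12.5 chips and 4767 reads on 3 of 3 E14.5 chips, at 35.4, 22.4 and 36.8 CPM. When classes were built on the marker genes alone its log2 fold change was -0.77 in place of 10.71. Ackr3 was at 70.5, 56.5, 57.7, 89.2 and 19.6 CPM at E12.5 and 189, 279.5 and 306 at E14.5. Foxp1 was at 27.5, 74.3, 15.3, 103 and 19.2 and 310.4, 305 and 197 CPM, and Brinp2, a neural gene that also leads cluster 5, at 14.9, 28.7, 13.6, 60.1 and 2.47 and 239, 213 and 179.6 CPM. All 4 lay without overlap. Dpysl5, a cytoskeletal regulator of growing axons, averaged 101 ± 16.2 CPM at E12.5 and 239 ± 35.1 at E14.5. Nfix averaged 6.53 ± 7.0 CPM at E12.5 and 72.8 ± 35.2 at E14.5. Mpped2, with means of 323 and 749 CPM, Zfp704, with 43.3 and 146 CPM, and Nfib, with 254 and 558 CPM, were alike in that no chip of one age reached the range of the other. Htr3a had means of 0.0106 and 8.54 CPM.

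In neuron-like cells synapse and excitability genes were positive for 23 of 32 (median 0.59), 3 of them at an unadjusted p under 0.05, where 2.01% of all genes were. Gria1 averaged 8.38 ± 10.5 CPM at E12.5 and 96.5 ± 45 at E14.5. Pan-neuronal genes, which named the class, were positive for 12 of 27. MGE lineage genes were positive for 8 of 13 (median 0.92) and went both ways: Lhx6 averaged 133 ± 121 CPM at E12.5 and 353 ± 73.9 at E14.5. Erbb4 averaged 37.1 ± 26.6 CPM at E12.5 and 173 ± 78.6 at E14.5 without overlap. The peptide gene Sst averaged 136 ± 135 CPM at E12.5 and 5.97 ± 3.83 at E14.5, with overlap. Of 17 striatal and lateral eminence genes 13 were positive (median 0.42). Its abundant members had means of 441 and 589 CPM for Meis2, 264 and 306 CPM for Bcl11b and 245 and 269 CPM for Sp9.

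**Figure D5:**
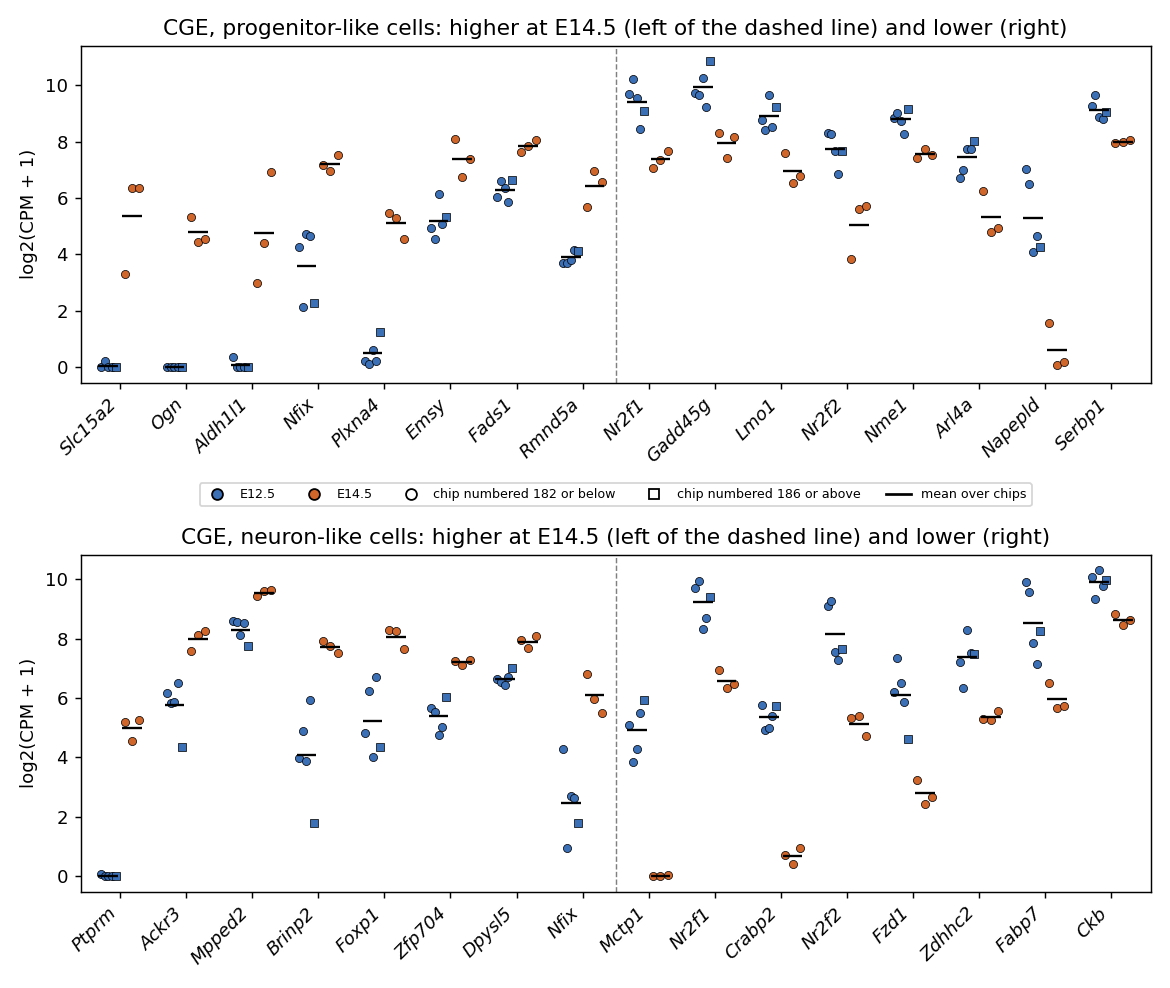
Level of the 16 genes with the smallest p-values in progenitor-like cells (top) and neuron-like cells (bottom), as log2(CPM + 1), on 5 E12.5 (blue) and 3 E14.5 (orange) chips, with bars for means of the plotted values. Nr2f1 and Nr2f2 are among the lower genes of both classes and Nfix among the higher genes of both.

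Whether the age effect differed between the classes was tested directly with an interaction of class and age, the chip being a term. Of 13586 genes 0 were called (0.0%) and 356 had an unadjusted p under 0.05. Among the genes named here, the fitted difference (progenitor-like minus neuron-like) was 2.17 ± 0.71 (SE, p = 0.0131) for Fabp7, -2.29 ± 0.75 (SE, p = 0.0127) for Ackr3 and 0.96 ± 0.26 (SE, p = 0.00446) for Ckb. For 3 genes named in both classes it was 0.63 ± 0.42 (SE, p = 0.161) for Nr2f1, 0.35 ± 0.61 (SE, p = 0.583) for Nr2f2 and -0.26 ± 0.94 (SE, p = 0.787) for Nfix. No gene thus passed the test for a difference between the classes.

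Whether the age effect in CGE differed from that in MGE was tested on chips numbered 160 and above, with 6 and 5 CGE chips, 6 and 3 dMGE chips and 7 and 1 vMGE chips at E12.5 and E14.5. Of 20157 genes 0 were called (0.0%) and 1078 had an unadjusted p under 0.05. The E14.5 vMGE group is 1 chip, assumed to vary like the chips of the other groups. The fitted difference (CGE minus MGE) was -2.98 ± 1.22 (SE, p = 0.0200) for Nr2f2, with means of 259.8 and 74.4 CPM in CGE at E12.5 and E14.5, 84.7 and 1095 in dMGE and 38.6 and 15.3 in vMGE. CPM in this fit were scaled over all 6 groups. The E14.5 CGE mean of Nr2f2 thus lay below that of dMGE. Sp8 had E14.5 means of 33.3 CPM in CGE, 0.319 in dMGE and 0.0209 in vMGE. Lhx8, a factor of ventral subpallial neurons, had 0.464 CPM in CGE, 37.7 in dMGE and 290.3 in vMGE. How well the cells match their tissue label was not tested.

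For Hmga2 the difference was -2.37 ± 1.86 (SE, p = 0.212), its E12.5 and E14.5 means being 14 and 0.474 CPM in dMGE and 7.40 and 0.0209 in vMGE. For Ccnd1 it was -1.10 ± 1.06 (SE). Mctp1 had means of 12.3 and 2.86 CPM in dMGE and 13.8 and 0 in vMGE. The 0 comes from 1 E14.5 vMGE chip and leaves the fitted MGE fall without a bound. This fit therefore cannot decide whether the fall of Mctp1 differed between CGE and MGE. All 3 genes had lower means at E14.5 in both parts of the MGE. For Nfix the difference was 2.88 ± 1.3 (SE, p = 0.0344), with 6.82 and 2.97 CPM in dMGE and 13.4 and 7.58 in vMGE, and for Rb1cc1 2.04 ± 0.91 (SE, p = 0.0323). None of these differences passed adjustment (edgeR adjusted p of at least 0.897), so no age effect was shown to be particular to the CGE.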

How the data were processed

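Per the labels, cells were captured on Fluidigm C1 chips and amplified with Smart-seq v4 and Nextera. Per the submitters' processing notes, the tools were STAR 2.4.0, HTSeq 0.6.1, CASAVA, FastQC and SAMtools, with build mm9. The deposited table holds raw read counts per gene and cell, made by the authors before normalization and without molecular identifiers. Floors set in reads therefore cover the counting of reads only. The SDs over chips and the standard errors of the fits describe how chips vary. A second table, in RPKM, was not used here. A reference table of gene names matched 32620 of 37310 gene identifiers, and the file's own symbols were used otherwise. No coordinates were used.

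Counts were scaled per cell and log-transformed, and 2000 variable genes and 30 principal components were used with 15 neighbours and Leiden resolution 1 (scanpy 1.11.5). A cluster took the marker list of highest score, at least 0.2, with 4 markers in 10% of its cells. No doublet caller was run; 207 CGE cells held both Xist and Y-linked counts. Counts were summed per chip (per class with at least 10 cells) and fitted with edgeR 4.0.16 (quasi-likelihood, TMM, filterByExpr), with limma 3.58.1 and DESeq2 1.42.0 as alternatives. A call is a Benjamini-Hochberg adjusted p under 0.05 over all genes tested. Shares of cells with a read used cells thinned to 200000 counts, which left out 22 cells.

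Members, lists and tests were chosen with earlier results of these data known. The rule for named genes took, for each comparison, 8 genes in either direction with at least 20 CPM in the higher group, called genes first by size of change and then others by smallest p. It added the 4 most abundant members of 7 lists and left out predicted and sex-linked genes; some items are not reported here. Further list members are quoted to describe a list's count and were chosen after their values were seen. The fitting script was tested on simulated data.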

Additional observations from a re-analysis of the deposited data

Results flagged for a closer look

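Of 65 groups of chips tested over the genes of smallest p and the progenitor-like share, 9 held a chip far from the others. A chance rate of about 1 in 20 groups does not carry over here. The genes were chosen by their p, and some flagged values lie near 0. In sums over all cells at E14.5, Hmga2 stood at 0.138 CPM on chip 160, Ndrg2 at 279 on chip 190-2, Nxph1 at 364.0 on chip 189-2 and Zfp704 at 349 on chip 189-2. Each of these was the highest E14.5 chip, and for Ndrg2, Nxph1 and Zfp704 the other 4 chips also lay above every E12.5 chip. Rb1cc1 stood at 216 CPM on E12.5 chip 182, against a median of 137. In progenitor-like cells at E12.5, Aldh1l1 stood at 0.299 CPM on chip 172 and Slc15a2 at 0.171 CPM on chip 175, with medians of 0. In neuron-like cells at E12.5, Nfix stood at 18.6 CPM and Ptprm at 0.0528 CPM on chip 172.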

How the results depend on the processing

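The count over all cells, 1 by edgeR, was 77 by DESeq2 and 3 (all lower, without Mctp1) with E14.5 chips 189-2 and 190-2 alone. It was 0 with limma on log2(mean CPM + 10), with the stricter cell filter, without cells holding Xist and Y-linked counts, with E14.5 chips 160 to 162 alone, with either chip series alone or as a term, without the chip above 4% mitochondrial counts and with median genes per cell as a covariate. Leaving out each chip gave 0 to 1, as in the account of Mctp1. The 0 calls in progenitor-like cells became 88 by DESeq2 (18 higher, 70 lower) and 0 to 1 on leaving out a chip, the 1 being Gm1821, lower without E12.5 chip 179. Those in neuron-like cells became 90 by DESeq2, 3 by limma on log2(mean CPM + 10), 1 at Leiden resolution 2, 1 with classes from the marker genes alone and 0 to 1 on leaving out a chip, again chip 179. The interaction of class and age gave 0 throughout. The CGE against MGE test gave 1 without the low count filter and 0 to 4 on leaving out a chip, with 4 without dMGE E14.5 chip 193 and 1 without vMGE E12.5 chip 177; leaving out chip 194, the only E14.5 vMGE chip, was not run. The share difference of -5.06 percentage points was -37.2 at Leiden resolution 0.5, -23.8 at resolution 2, -4.20 with all cells of the series clustered, -5.66 with the stricter cell filter, -29.0 on chips up to 182, -19.6 with classes from the marker genes, -26.8 with E14.5 chips 160 to 162 alone, 27.6 with chips 189-2 and 190-2 alone and -25.4 over chips with at least 10 named cells. Leaving out a chip gave -16.0 to 1.22, the sign turning without chips 160 or 162. The cause of these shifts was not tested. For the classes, chips 160 to 162 are the only E14.5 chips, so neither subset of E14.5 chips gave another value. Of the 16 genes of smallest p in each comparison, none changed direction over 432 values in all cells and 376 in progenitor-like cells; in neuron-like cells 1 of 384 did, Ptprm, at -0.77. Over all named genes, 59 of 1134, 65 of 976 and 58 of 960 values had the other sign, none of them for Mctp1. The chip series, the Xist and Y-linked filter and the minimum of 10 named cells were chosen after seeing the data. No paired analysis was possible because the ages share no chip numbers. Median shifts of all genes under other scalings were under 0.1. Without identifiers for molecules, depth limits what a read count near 0 can show.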
